A study of Schizosaccharomyces pombe with 72 samples.

Results

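RNA from the strand opposite many fission yeast genes was higher in libraries labelled hrp3Δ than in wild type, and 507 such antisense entries are described here. They were chosen from the measured values of one experiment, called B, as the antisense entries over nuclear genes (names beginning SPAC, SPBC, SPCC, SPAP, SPBP or SPCP) of at least 600 and under 3000 bases whose log2 ratio of (mean CPM + 1), hrp3Δ over wild type (WT), was at least 1.5; CPM is the estimated count divided by the library total and multiplied by 1000000. That rule took 507 of 3729 antisense entries of the same kind, among 13994 entries of both strands. Because experiment B set the choice, its hrp3Δ and WT values are given as a description only, and the results below rest on experiments A, C and D and on the pair of experiment B groups that the rule did not use. Just inside the threshold lay the antisense entries of nup85 (1.502), klp3 (1.503) and mde1 (1.505), and just outside it SPAC4G8.04 (1.499), sgd1 (1.496) and nse6 (1.494).

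Hrp3 and Hrp1 are the CHD-family chromatin remodelers of fission yeast, ATP-driven enzymes that space nucleosomes into regular arrays along transcribed genes. Such arrays cover promoter-like DNA inside genes, and where they are disturbed RNA polymerase II can start there and transcribe the gene backwards, which is called cryptic antisense transcription. Prf1, the fission yeast Rtf1, is an elongation factor that travels with RNA polymerase II. Here each gene was counted on both strands, as its annotated sequence (sense) and as the reverse complement of that sequence (antisense, an entry of the same length).

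All strains were h+ ade6-M216 ura4-D18 leu1-32, grown in YES medium at 32 °C and harvested at OD600 0.5, and each of the 24 groups was 1 strain with 3 mRNA-seq libraries, so 72 libraries in all. Experiment A held deletions of hrp3, hrp1, fft2, fft3, mit1, rrp1, rrp2, irc20 and swr1 (each replaced by kanMX) with a WT, and in a second set with its own WT, deletions of fft1 and snf22 (hygMX). Experiment B held hrp1Δhrp3Δ, hrp3Δ, hrp1Δ and WT. Experiment C held 2 chimeras and WT: by its label, hrp1-CT(hrp3) is hrp1 with the C-terminus of Hrp3 at the hrp1 locus in an hrp3Δ strain, and hrp3-CT(hrp1) is hrp3 with the C-terminus of Hrp1 at the hrp3 locus in an hrp1Δ strain. Experiment D held hrp1Δhrp3Δprf1Δ, hrp1Δhrp3Δ, prf1Δ and WT. By the strain list, hrp1 is replaced by kanMX in hrp1Δhrp3Δ and hrp1Δhrp3Δprf1Δ, and no marker is named for prf1Δ. The hrp3Δ single is a kanMX replacement, whereas hrp1Δhrp3Δ, hrp1Δhrp3Δprf1Δ and the hrp1-CT(hrp3) strain carry an hrp3Δ with no marker named. The hrp3 alleles of the single and double mutants are therefore listed differently.

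Libraries held 3657 to 38590464 estimated counts (median 6304707), and the first-set WT of experiment A held 7990518, 1127427 and 1550782. The libraries labelled hrp3Δ of experiment A held 18149153, 2870816 and 470206. In the last of these, 3 counts made 6.38 CPM, so its low CPM values rest on few counts. In experiment D, 3 libraries stood apart from the median profile of all libraries, with a correlation of 0.228 for hrp1Δhrp3Δprf1Δ replicate 2 (the library of 3657 counts, 13 of them in the 507 entries), 0.569 for hrp1Δhrp3Δ replicate 1 and 0.685 for WT replicate 3, so experiment D is given with and without them. Not every targeted gene bore out its label. In experiment A the sense entry of hrp3 had 25.1, 21.2 and 38.3 CPM in the libraries labelled hrp3Δ, against 22.9, 25.7 and 21.3 CPM in WT, which was no lower, while the antisense entry of hrp3 had 37.7, 34.1 and 29.8 CPM, against 1.00, 0.887 and 0 CPM. In experiment B hrp3 sense RNA had 23.6, 26.0 and 26.3 CPM in hrp3Δ, against 53.6, 60.4 and 53.4 CPM in WT, and it was at 0 in the 3 hrp1Δhrp3Δ libraries of experiment B and likewise of experiment D. In experiment C both genes went against the labels. hrp3 sense RNA had 82.0, 85.1 and 83.1 CPM in the libraries labelled hrp1-CT(hrp3), whose labelled strain lacks hrp3, and 50.4, 37.4 and 39.2 CPM in those labelled hrp3-CT(hrp1), against 63.3, 56.8 and 66.8 CPM in WT. hrp1 sense RNA had 58.7, 117 and 85.2 CPM in the libraries labelled hrp3-CT(hrp1), whose labelled strain lacks hrp1, and 39.3, 50.4 and 42.4 CPM in those labelled hrp1-CT(hrp3), against 96.9, 87.8 and 86.5 CPM in WT. By its label each chimera carries the C-terminus of the other gene, and whether this adds reads to that gene's entry was not tested. Whether the chimera labels were exchanged was not tested either. Every direction given for experiment C is that of the labels as deposited. In experiment A hrp1 sense RNA had 12.5, 16.5 and 14.9 CPM in hrp1Δ, against 19.8, 19.3 and 24.6 CPM in WT, and in experiment D prf1 sense RNA had 61.8, 53.8 and 60.3 CPM in prf1Δ, against 153, 128 and 3.04 CPM in WT. The bases that each deletion removed are not given in the sources used here.

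The printed sequences are 86-base windows on the antisense strand inside the coding spans (start codon to stop codon, introns included) of 4 genes followed below, each around 1 match to TATAAA, the core of many yeast TATA boxes, because the antisense RNAs have the sequence of this strand. Capitals mark TATAAA. Where a gene has several matches, the one with the most A and T around it is shown. Letters and coordinates are from RefSeq on ASM294v3.
taf5 antisense, chrIII:641918-642003, + strand: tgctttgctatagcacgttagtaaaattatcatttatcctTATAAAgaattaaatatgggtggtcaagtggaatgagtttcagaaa
rap1 antisense, chrII:3099367-3099452, - strand: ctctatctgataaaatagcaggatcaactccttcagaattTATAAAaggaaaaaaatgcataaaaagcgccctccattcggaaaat
atg9 antisense, chrII:3025008-3025093, + strand: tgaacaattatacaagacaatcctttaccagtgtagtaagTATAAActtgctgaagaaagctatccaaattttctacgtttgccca
chk1 antisense, chrIII:1061586-1061671, - strand: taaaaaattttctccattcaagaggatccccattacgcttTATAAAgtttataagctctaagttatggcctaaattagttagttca

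TATAAA was found on the antisense strand of 317 of 506 coding spans under the raised entries (62.7%), against 47.8% of 3218 spans under the other entries of the class and 49.8% of all 3724. It was also found on the sense strand of 57.3% of the spans under the raised entries and 43.3% of the others, and longer spans hold more matches. Within spans of 1501 to 2000 bases the antisense-strand shares were 64.1% of 131 against 53.1% of 704, and within spans of 600 to 1000 bases they were 34.4% of 61 against 32.7% of 847. Overlapping matches were counted each, and the spans of orc4, prp40, vps17 and utp4, all among the raised entries, hold none on the antisense strand. A match describes letters only and is not shown to be a start site.

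The genes under the raised entries were longer and had less sense RNA than the others of the class. Their median length was 1689 bases, against 1218 bases in the other 3222 entries of the class. The raised entries made up 4.95% of the shortest quintile of the class and 28.3% of the longest. Median sense level in experiment A WT was 10.2 TPM (a level corrected for transcript length), against 17.2 TPM, and the raised entries were 17.4% of the quintile with the lowest sense level and 5.50% of the quintile with the highest. Coding sequence was 60.8% A+T at the median, against 60.2%, and the share of raised entries was 8.31% in the quintile with the least A+T and 16.3% in that with the most. A fixed addition of 1 CPM favours entries that collect many counts, which long entries do, so length and the choice cannot be told apart here. An annotated noncoding RNA lay on the opposite strand of 85.2% of the 506 spans, against 72.5% of the others. Counting only noncoding RNAs that have an entry of their own in these data, the shares were 14.4% and 16.1%. Neither pair of shares was matched for length. An opposite-strand coding gene overlapped 6.72% of the spans, against 14.8%, and for these the antisense entry also collects reads of the neighbour. The share of intronless genes was 53.4%, against 53.8%.

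**Figure D1:**
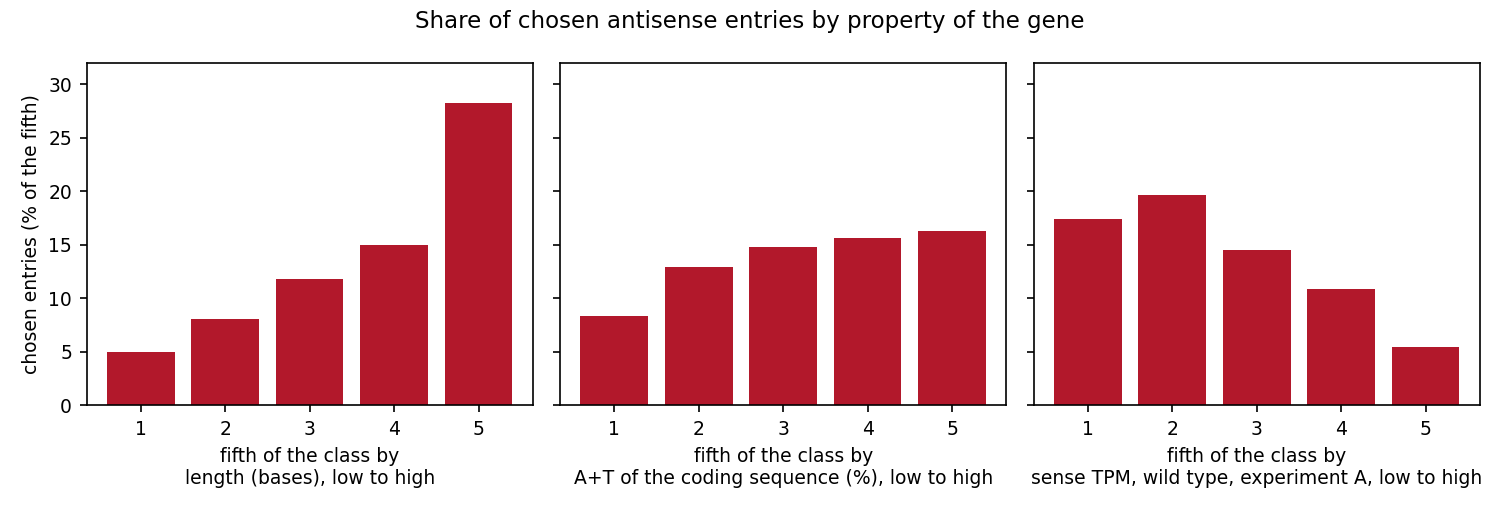
Each bar is the percent of a quintile of the 3729-entry class that was among the 507 raised antisense entries, with quintiles ordered low to high by length, by A+T percent of the coding sequence and by sense TPM in the experiment A wild type. The share climbs to 28.3% with length and falls to 5.50% in the quintile with the most sense RNA.

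The same antisense entries were raised in libraries labelled hrp3Δ again, in an experiment that took no part in the choice. In the libraries labelled hrp3Δ of experiment A, the 507 entries together took 0.527% ± 0.0279 of library counts, against 0.0659% ± 0.00953 in WT (SD, n = 3 each). The median entry stood at 7.65 CPM in libraries labelled hrp3Δ and 0.761 CPM in WT. Of the 380 that passed the filter on low counts, 350 were called higher (edgeR quasi-likelihood test, Benjamini-Hochberg adjusted p under 0.05), against 22.2% of all 8485 entries tested, with a median log2 fold change of 3.08. Other tested entries of the class were also raised, by a median of 0.89, and 41.3% of those 1001 were called higher. An entry could pass the filter through the libraries where it was high: in the second set, which holds no such group, 169 of the 507 passed, so the count of 350 describes the entries that passed and carries no weight of its own. The filter removed 127 of the 507, of which 121 were called higher in libraries labelled hrp1-CT(hrp3) of experiment C. Without any filter, 435 of the 507 had every library labelled hrp3Δ above every WT library, against 40.9% of the class. On the log2(mean CPM + 1) scale of the rule, 404 of 507 again reached 1.5, and so did 520 of the 3222 other class entries. Replicates are described as biological replicates of one strain, with separate cultures not stated, so p-values measure the spread between these libraries, and in bulk RNA a rise in a few cells and a rise in every cell cannot be told apart.

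**Figure D2:**
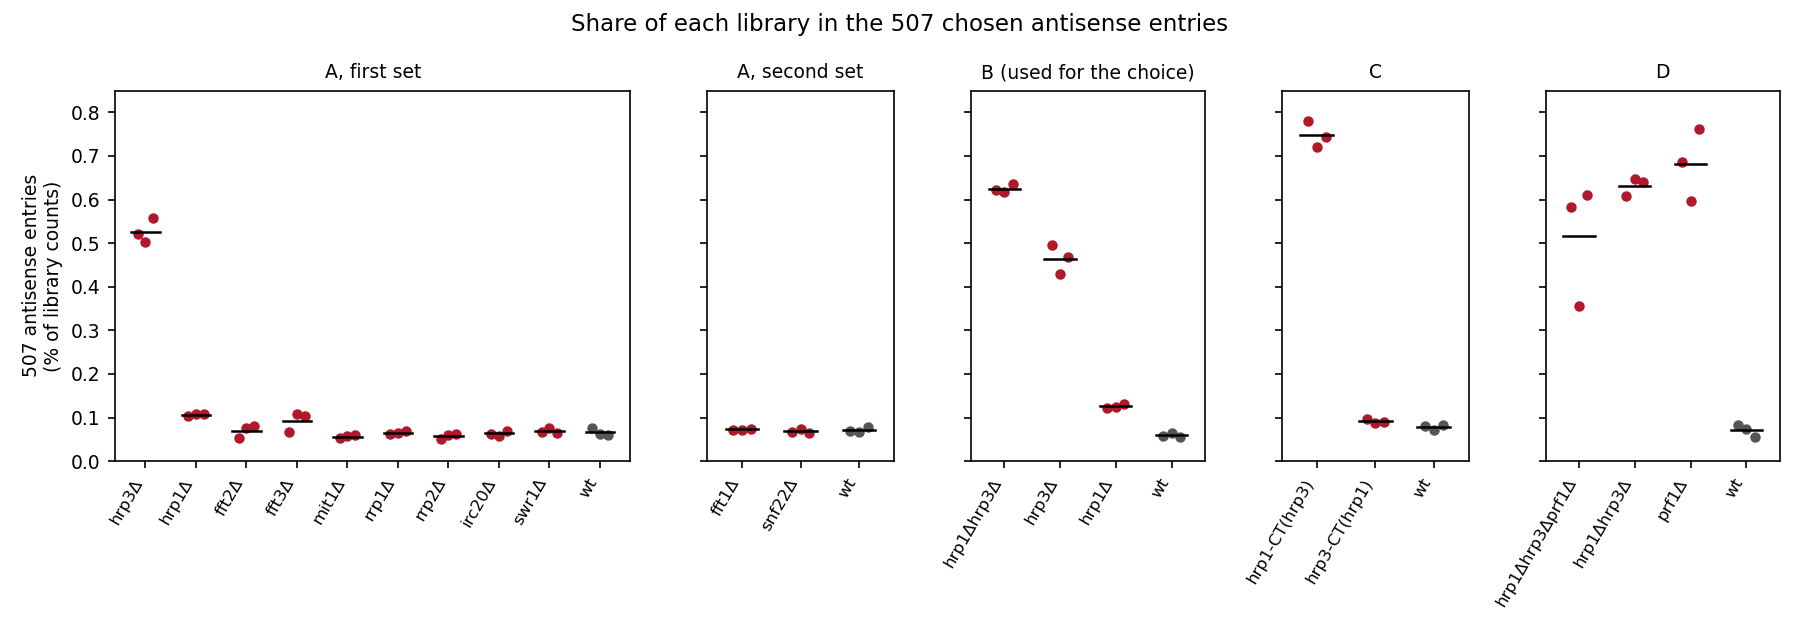
Points are libraries and bars are group means of the summed estimated counts of the 507 raised antisense entries, as percent of library counts, by experiment; red marks mutants and grey marks wild type. The libraries labelled hrp3Δ, hrp1Δhrp3Δ, hrp1-CT(hrp3) and prf1Δ lie above 0.4%, and the wild-type libraries below 0.1%. The low point of hrp1Δhrp3Δprf1Δ is the library of 3657 counts.

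Antisense orc4, mcm2 and chk1, over genes of DNA replication and the DNA damage checkpoint, were called higher. Orc4 is a subunit of the origin recognition complex, which marks replication origins, and its gene lies at chrII:2025388-2028676 on the + strand. Antisense orc4 RNA had 52.5, 48.4 and 63.8 CPM in libraries labelled hrp3Δ libraries, against 1.13, 0.887 and 0.645 CPM in WT. The groups did not overlap, and the log2 fold change was 5.58 ± 0.41 (SE; adjusted p = 2.0e-10). Antisense mcm2, over a subunit of the replicative helicase, had 27.6, 22.3 and 23.4 CPM in libraries labelled hrp3Δ, against 2.38, 1.77 and 1.29 CPM in WT (log2 fold change 3.46 ± 0.37, adjusted p = 1.2e-07). Chk1, the DNA damage checkpoint kinase, had antisense RNA at 5.40, 4.88 and 10.6 CPM in libraries labelled hrp3Δ, against 1.25, 0.887 and 0.645 CPM in WT, and rose by 2.36 ± 0.62 (adjusted p = 0.0037). A coding gene overlaps chk1 on the other strand, so part of that signal may be the neighbour's. In the replication and origin-licensing list, 9 of 11 antisense entries tested were called higher (median log2 fold change 1.97), with 4 of its 23 class entries (drc1, mcm2, mcm3 and orc4) among the 507. In the DNA damage list 9 of 13 were called higher (median 2.36), and 7 of its 21 class entries were among the 507, rad52 and rad55 of homologous recombination with them. Here and below, list counts cover all antisense entries of the class that belong to a list, and stand beside 55.2% of the 1381 antisense entries of the class tested. List medians stand beside 3.08 in the tested entries among the 507 and 0.89 in the other class entries tested. Over all antisense entries tested, which include entries outside the class, the median was 0.74. No test compared a list with the class.

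Antisense taf5, rap1 and atg9, over genes of transcription, the telomere and autophagy, were also called higher. Taf5 is a subunit of TFIID and its gene lies at chrIII:640083-642535 on the - strand; its antisense RNA had 42.3, 54.0 and 34.0 CPM in libraries labelled hrp3Δ, against 2.25, 2.66 and 0.645 CPM in WT (log2 fold change 4.34 ± 0.47, adjusted p = 1.1e-07). Rap1 binds telomeres within the shelterin complex, and antisense over it (gene at chrII:3098271-3100698, + strand) had 5.73, 6.27 and 8.51 CPM in libraries labelled hrp3Δ, against 0.250, 0 and 0 CPM in WT (4.91 ± 0.86, adjusted p = 6.9e-05). Atg9, a membrane protein needed for autophagosome formation, lies at chrII:3023343-3025771 on the - strand, and its antisense RNA had 25.0, 21.2 and 31.9 CPM in libraries labelled hrp3Δ, against 2.50, 1.77 and 1.93 CPM in WT (3.33 ± 0.56, adjusted p = 4.7e-05). None of these 3 overlapped between the groups. Antisense set2, over the gene for the histone H3 lysine 36 methyltransferase, had 17.4, 23.0 and 19.1 CPM in libraries labelled hrp3Δ, against 0.501, 0 and 0.645 CPM in WT (5.24 ± 0.58, adjusted p = 1.7e-07). In the TFIID and SAGA list 8 of 10 antisense entries tested were called higher and 1 lower (median 2.29), in the telomere list 4 of 5 (2.79), and in the autophagy list 3 of 4 (3.57). The 5 telomere genes among the 507 were ccq1, est1, pot1, rap1 and trt1, of which trt1 and est1 belong to telomerase. Antisense pot1, over the protein that binds telomeric single strands, had 21.7, 23.3 and 27.6 CPM in libraries labelled hrp3Δ, against 3.00, 3.55 and 3.87 CPM in WT (2.67 ± 0.32, adjusted p = 4.3e-07).

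Among cell cycle genes, the list of mitotic and septation regulators had 11 of 13 antisense entries called higher (median 2.21). Plo1, the Polo kinase that acts in mitosis, had antisense RNA at 23.9, 22.3 and 27.6 CPM in libraries labelled hrp3Δ, against 5.76, 3.55 and 2.58 CPM in WT (log2 fold change 2.27 ± 0.35, adjusted p = 1.8e-05). In the kinetochore and spindle checkpoint list 5 of 14 were called higher (median 0.89), in the nuclear pore list 5 of 8 (1.49), in the tRNA synthetase list 5 of 8 (2.11) and in the stress MAP kinase list 4 of 5 (4.83). The tRNA synthetase list includes dps1, which RefSeq annotates as a decaprenyl diphosphate synthase subunit. Glycolysis and fermentation genes had 1 of 9 called higher although their median log2 fold change was 2.30, and of 19 such genes in the class 0 were among the 507. Cytosolic ribosomal protein genes had 2 of 6 called higher, with a median of 2.01, and 0 of 34 among the 507. Antisense over markers of sexual differentiation had 2 of 11 called higher and 1 lower (median 0.17), while sense RNA of that list had 6 of 11 higher and 1 lower; its part in the antisense result was not tested.

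Further entries were called higher, with log2 fold changes of 2.60 to 5.65. Antisense spb70, over the B subunit of DNA polymerase alpha, had 4.79, 3.48 and 6.38 CPM in libraries labelled hrp3Δ, against 0.626, 0 and 1.29 CPM in WT (log2 fold change 2.60 ± 0.64, adjusted p = 0.0024). Antisense mph1, over a kinase of the spindle checkpoint, averaged 30.1 ± 8.94 CPM in libraries labelled hrp3Δ, against 2.00 ± 1.63 CPM in WT (SD, n = 3 each; 3.85 ± 0.47, adjusted p = 6.1e-07). The groups did not overlap for either entry. Antisense atg11, over a regulator of autophagy, averaged 17.4 ± 3.69 CPM in libraries labelled hrp3Δ, against 0.504 ± 0.456 CPM in WT (4.75 ± 0.63, adjusted p = 2.3e-06). Antisense ala1, over alanyl-tRNA synthetase, averaged 10.9 ± 1.08 CPM, against 0.0635 ± 0.110 CPM (5.65 ± 1.00, adjusted p = 8.3e-05). The 2 genes of the sexual differentiation list among the 507 were rec10, of meiotic recombination, at 10.3 ± 4.14 CPM in libraries labelled hrp3Δ, against 1.18 ± 0.567 CPM in WT (3.12 ± 0.52, adjusted p = 4.1e-05), and spo5, a meiotic RNA-binding protein gene, at 4.50 ± 0.493 CPM, against 0.125 ± 0.217 CPM (3.93 ± 0.76, adjusted p = 2.4e-04); rec10 overlaps a coding gene on the other strand.

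The level and the size of the rise did not rank the entries alike. The highest antisense level per length in libraries labelled hrp3Δ was over mug37, a gene named for upregulation in meiosis, at 29.0 ± 0.886 TPM (SD, n = 3); it rose by 1.78 ± 0.23 on the log2 scale (adjusted p = 1.2e-06). Antisense over kin17, a KIN17-like gene, stood at 17.2 ± 3.80 TPM and at 32.4, 32.0 and 21.3 CPM, against 3.38, 3.55 and 1.93 CPM in WT (3.13 ± 0.34, adjusted p = 1.2e-07). The largest fitted changes belonged to entries with 0 counts in the 3 WT libraries, for which a floor of 3 counts per library gives the bound. Antisense over dip2, which encodes a U3 snoRNA-associated protein of ribosome biogenesis, had 13.2, 12.9 and 12.8 CPM in libraries labelled hrp3Δ and was at least 7.82-fold higher than WT. Antisense over the casein kinase 1 genes cki2 and cki1 was at least 5.87-fold and 3.09-fold higher. At the other end, antisense cft2, over an mRNA processing gene, had 19.5, 8.94 and 4.5e-07 CPM in libraries labelled hrp3Δ, against 13.5, 15.1 and 11.6 CPM in WT, and the groups overlapped (-0.18 ± 0.63, adjusted p = 0.86). kallisto divides reads shared between entries by estimation, and its part in the cft2 values was not tested; 18 of the 507 entries had an estimated count between 0 and 0.01 in some library.

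In hrp1Δ these entries were called higher about as often as all entries tested, while their summed level lay above WT. In hrp1Δ of experiment A the 507 took 0.106% ± 0.00260 of counts, against 0.0659% in WT. Of 380 tested, 44 were called higher, against 10.9% of all entries tested and 6.69% of the other class entries tested. Another 7 were called lower, against 10.7% of all entries tested. The median log2 fold change was 0.50, against 0.09 in the other entries of the class. The 44 were all among the 350 called in libraries labelled hrp3Δ, but 350 of 380 were called there, so most of any 44 would be. Without overlap with WT were 116 of 507, against 13.3% of the class. Antisense over vps17, a retromer subunit of endosomal sorting, had 10.5, 15.8 and 11.6 CPM in hrp1Δ, against 0.501, 0.887 and 0 CPM in WT (log2 fold change 4.68 ± 0.58, adjusted p = 6.0e-06). The libraries labelled hrp3Δ, at 14.0, 18.1 and 8.51 CPM, overlapped those of hrp1Δ, and the difference between the mutants was 0.10 ± 0.37 (adjusted p = 0.89). Antisense over rhp1602, a DNA translocase gene, had 9.81, 9.51 and 10.0 CPM in hrp1Δ, against 1.15, 0 and 0 CPM in WT (3.59 ± 0.60, adjusted p = 2.2e-04). Antisense over SPCC569.03, an uncharacterized gene whose reads may be shared with similar genes, moved in opposite directions: 50.4, 53.1 and 59.5 CPM in libraries labelled hrp3Δ and 4.34, 4.17 and 3.31 CPM in hrp1Δ, against 9.51, 9.15 and 9.02 CPM in WT. The count of 44 was 16 without WT replicate 1, 24 without hrp1Δ replicate 1 and 12 in a fit of those 2 groups alone.

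Set directly against hrp1Δ, hrp3Δ was higher for 322 of 380 entries in experiment A, against 17.6% of all entries tested. The median log2 difference was 2.55 (0.76 in the other entries of the class, of which 35.9% were called higher). These 380 passed the same filter as above, so the count of 322 carries no weight of its own. Without any filter, 419 of the 507 had every library labelled hrp3Δ above every hrp1Δ library, against 37.2% of the class. Antisense over aur1, the inositol phosphorylceramide synthase gene, had 18.1, 15.1 and 27.7 CPM in libraries labelled hrp3Δ and 0 in the 3 hrp1Δ libraries, a difference of at least 17.4-fold over a floor of 3 counts per library. In experiment B, 2 groups that the rule left aside gave the effect of losing hrp3 on top of hrp1. There 487 of 506 entries were higher in hrp1Δhrp3Δ than in hrp1Δ, against 25.5% of all entries tested. The median was 2.30 (1.03 in the other class entries, of which 49.7% were called higher). The fit and its filter used all 12 libraries of experiment B. An entry could therefore pass through the hrp3Δ libraries that set the choice, and the count of 487 carries no weight of its own. Without any filter, 497 of the 507 had every hrp1Δhrp3Δ library above every hrp1Δ library, against 61.3% of the class. In experiment B the 507 took 0.625% ± 0.00938 of counts in hrp1Δhrp3Δ and 0.126% ± 0.00487 in hrp1Δ, beside 0.464% ± 0.0336 in hrp3Δ and 0.0589% ± 0.00457 in WT. The hrp1Δ value of both experiments lay above its WT in every library. Antisense rap1 rose by 4.01 ± 0.29 on the log2 scale (adjusted p = 8.4e-08), at 19.5, 21.6 and 22.5 CPM in hrp1Δhrp3Δ, against 1.66, 0.799 and 0.944 CPM in hrp1Δ, with 3.47, 4.54 and 2.77 CPM in hrp3Δ. Antisense dip2 ran the other way, with 3.01, 2.08 and 2.96 CPM in hrp1Δhrp3Δ and 12.8, 10.1 and 9.55 CPM in hrp3Δ; these values come from the contrast of the choice and carry no test.

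Nearly all of these entries were raised in the libraries labelled hrp1-CT(hrp3), and few in those labelled hrp3-CT(hrp1); the sense RNA of both genes, given above, went against these labels. In experiment C the 507 took 0.749% ± 0.0297 in libraries labelled hrp1-CT(hrp3) and 0.0914% ± 0.00499 in libraries labelled hrp3-CT(hrp1), against 0.0786% ± 0.00556 in WT. In libraries labelled hrp1-CT(hrp3), 489 of 500 entries tested were called higher than WT, against 33.1% of all 10668 entries tested, with a median log2 fold change of 3.37 (1.79 in the other class entries, of which 72.1% were called higher). Without overlap with WT were 500 of 507, against 74.5% of the class. In libraries labelled hrp3-CT(hrp1), 32 of 500 were called higher, against 4.61%, and 14 lower, against 3.29%, with a median of 0.18, and 82 of 507 had no overlap, against 13.5%. The direct difference, libraries labelled hrp1-CT(hrp3) over libraries labelled hrp3-CT(hrp1), was called higher for 489 of 500 entries, against 32.6%, with a median of 3.12 (1.56 in the other class entries, of which 65.5% were called higher). The count for the label hrp3-CT(hrp1) was 14 and 11 without WT replicates 1 and 2, 15 without hrp3-CT(hrp1) replicate 3, and 6 in a fit of those 2 groups alone.

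Antisense orc4 had 47.8, 42.9 and 39.7 CPM in libraries labelled hrp1-CT(hrp3) and 0, 0.930 and 0.480 CPM in libraries labelled hrp3-CT(hrp1), against 0.838, 0.542 and 1.19 CPM in WT. Antisense rap1 had 19.5, 18.8 and 17.4 CPM in libraries labelled hrp1-CT(hrp3) and 0.442, 0.310 and 0.384 CPM in libraries labelled hrp3-CT(hrp1), against 0.209, 0.217 and 0.108 CPM in WT; the first rose by 6.35 ± 0.31 on the log2 scale (adjusted p = 3.3e-08) and the second differed by 0.99 ± 0.49 (adjusted p = 0.39). Antisense vps17, raised in hrp1Δ above, had 39.2, 29.6 and 34.4 CPM in libraries labelled hrp1-CT(hrp3) and 2.80, 1.96 and 2.30 CPM in libraries labelled hrp3-CT(hrp1), against 1.05, 0.542 and 1.41 CPM in WT. Antisense lsh1, over a gene whose product RefSeq names Lhs1, was raised in both chimeras, at 88.3, 75.9 and 84.2 CPM in libraries labelled hrp1-CT(hrp3) and 33.9, 41.0 and 32.2 CPM in libraries labelled hrp3-CT(hrp1), against 12.7, 12.2 and 10.1 CPM in WT. Antisense mdm28, over a putative potassium transporter gene of mitochondria, had 35.5, 32.7 and 37.2 CPM in libraries labelled hrp1-CT(hrp3) and 1.92, 2.69 and 1.92 CPM in libraries labelled hrp3-CT(hrp1), against 7.54, 9.96 and 8.67 CPM in WT, so that the second fell by 1.98 on the log2 scale (SE 0.21, adjusted p = 1.6e-04).

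By list, 19 of 21 antisense entries of replication genes tested rose in libraries labelled hrp1-CT(hrp3), as did 16 of 17 of DNA damage genes, 14 of 19 of TFIID and SAGA genes and 7 of 7 of telomere genes, beside 76.8% of antisense entries of the class tested. Autophagy genes had 13 of 15 higher and 1 lower, mitotic and septation regulators 16 of 18 higher, kinetochore genes 13 of 21 and tRNA synthetase genes 16 of 18. Glycolysis genes had 5 of 12 higher and markers of sexual differentiation 4 of 12, with 2 of the last lower.

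Antisense over prp40, a U1 snRNP-associated splicing factor gene, went its own way. It lies at chrI:5375567-5377762 on the + strand and ends 61 bases before hrp3 (chrI:5377824-5382913). Antisense prp40 had 50.0, 59.7 and 50.2 CPM in libraries labelled hrp3-CT(hrp1) and 7.34, 5.57 and 6.56 CPM in libraries labelled hrp1-CT(hrp3), against 1.26, 0.650 and 1.74 CPM in WT (log2 fold changes 5.44 ± 0.21 and 2.19 ± 0.25, adjusted p = 4.3e-08 and 1.2e-05). It was the 1 entry among the 507 called lower in the direct comparison of the chimeras (-3.25 ± 0.18, adjusted p = 4.0e-08). In libraries labelled hrp3Δ it had 32.7, 31.7 and 38.3 CPM in experiment A and 54.4, 41.5 and 52.5 CPM in experiment B, but 4.26, 4.57 and 4.26 CPM in hrp1Δhrp3Δ of experiment B. The antisense entry of hrp3 itself had 14.7, 12.5 and 17.1 CPM in libraries labelled hrp3-CT(hrp1) and 17.7, 15.8 and 18.1 CPM in libraries labelled hrp1-CT(hrp3), against 0.838, 0.542 and 1.30 CPM in WT. The part that the altered hrp3 locus, listed with different alleles in hrp3Δ and hrp1Δhrp3Δ, plays in the prp40 signal was not tested. The raised entry over ifs1 lay 791 bases from hrp3 on its other side, and without prp40 and ifs1, a choice made after seeing the data, the counts were 348 of 378 in libraries labelled hrp3Δ of experiment A and 487 of 498 in libraries labelled hrp1-CT(hrp3).

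**Figure D3:**
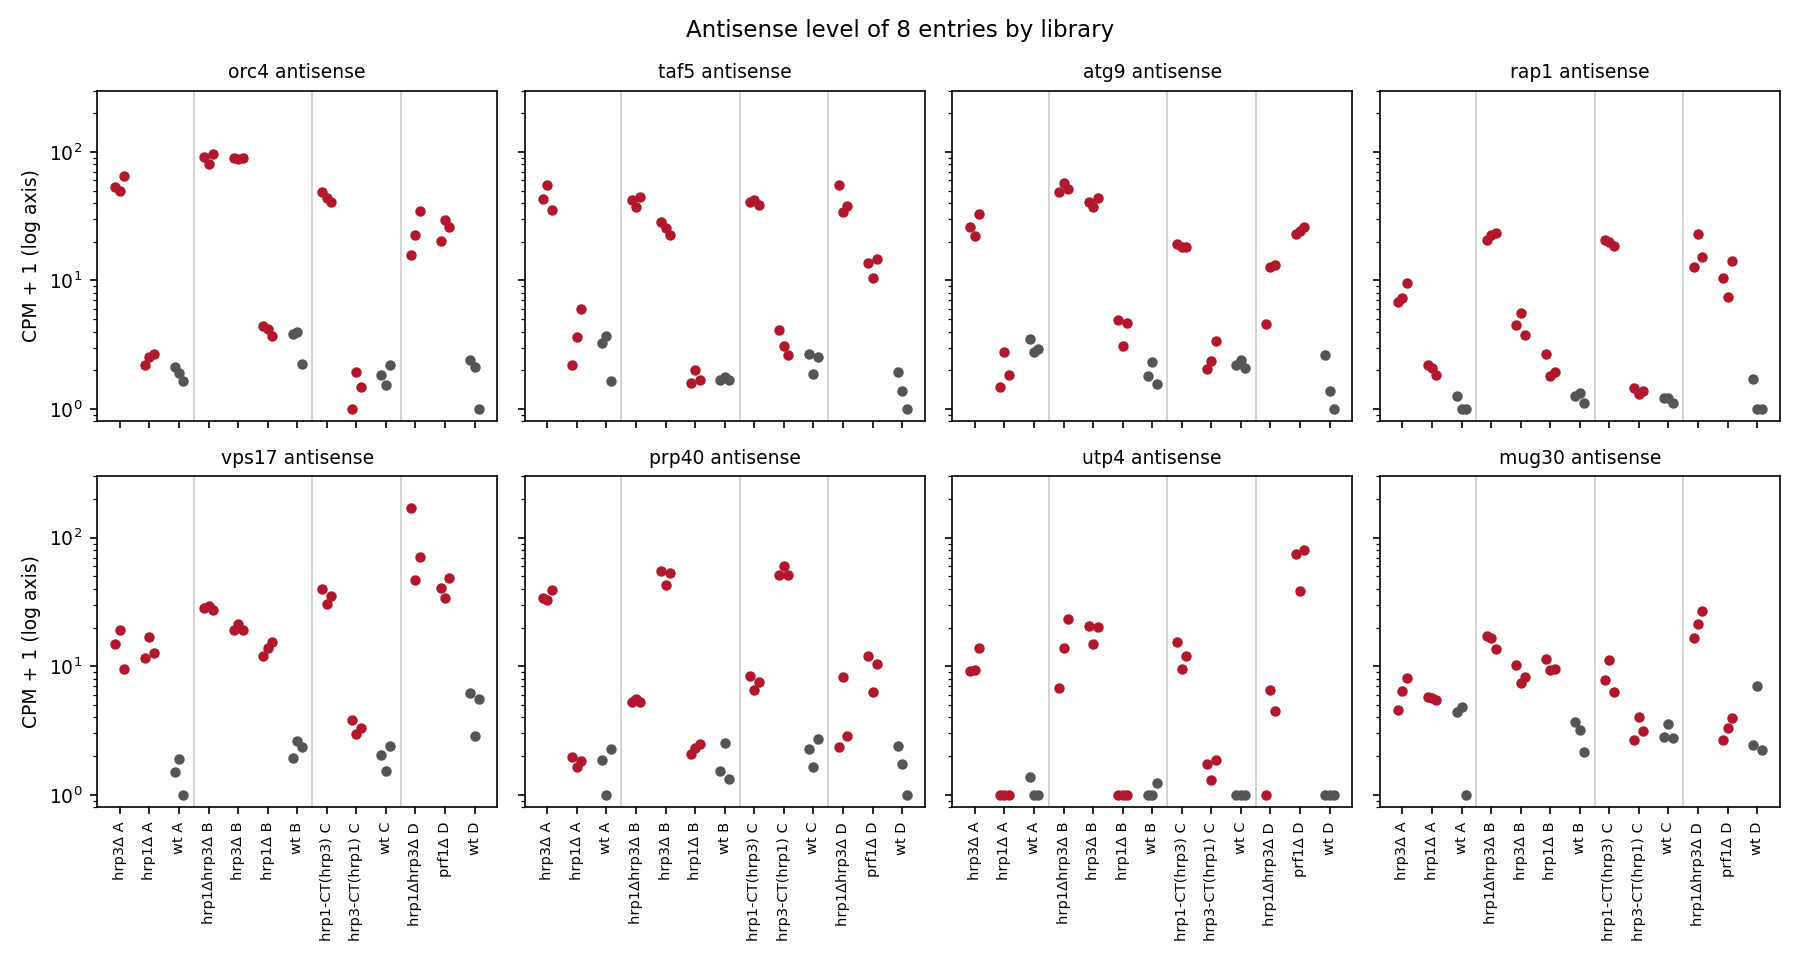
Points are the CPM + 1 of 8 raised antisense entries in single libraries (log axis), grouped by experiment with grey lines between, mutants in red and wild type in grey; hrp1Δhrp3Δprf1Δ and the other deletions of experiment A are not drawn. Antisense orc4, taf5, atg9 and rap1 are high in libraries labelled hrp3Δ, hrp1Δhrp3Δ and libraries labelled hrp1-CT(hrp3), vps17 also in hrp1Δ, and prp40 is highest in libraries labelled hrp3Δ and hrp3-CT(hrp1).

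Across the 507, the change in libraries labelled hrp3Δ of experiment A and in libraries labelled hrp1-CT(hrp3) of experiment C had a Pearson r of 0.62, the log2(mean CPM + 1) ratios sharing no library. For hrp3Δ of experiment A with hrp1Δhrp3Δ of experiment D r was 0.39, and for hrp1Δ of experiment A with hrp3-CT(hrp1) of experiment C it was 0.06. These are descriptions over entries that share libraries and base composition, with no test. Called higher under both labels, hrp3Δ (A) and hrp1-CT(hrp3), were 348 of the 350 entries, and 244 of them also in hrp1Δhrp3Δ of experiment D. Because 489 of 500 were called under the label hrp1-CT(hrp3), an overlap near 348 was fixed in advance and carries no weight. Called in none of hrp3Δ (A), the label hrp1-CT(hrp3), hrp1Δhrp3Δ (D) and hrp1Δhrp3Δ against hrp1Δ (B) were 4 entries, SPAC13C5.04, cft2, mss1 and ucp7, named here after their values were seen.

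**Figure D4:**
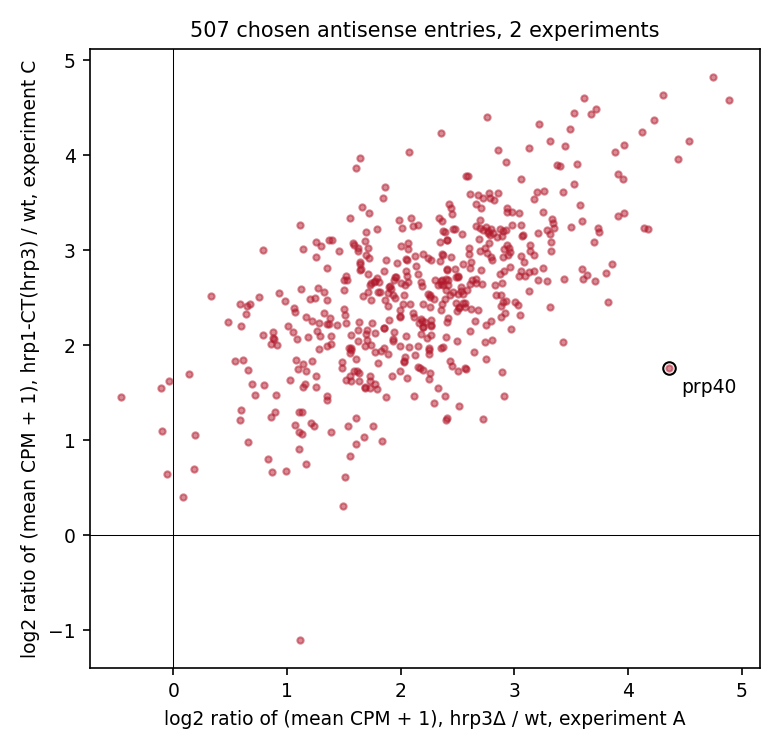
Each point is 1 of the 507 raised antisense entries, with its log2 ratio of (mean CPM + 1) in libraries labelled hrp3Δ over wild type of experiment A on the x axis and in libraries labelled hrp1-CT(hrp3) over wild type of experiment C on the y axis (Pearson r 0.62). The ringed point is prp40, beside the hrp3 locus.

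Most of these entries were also higher in the libraries labelled prf1Δ. In experiment D the 507 took 0.517% ± 0.140 in hrp1Δhrp3Δprf1Δ, 0.632% ± 0.0207 in hrp1Δhrp3Δ and 0.681% ± 0.0831 in prf1Δ, against 0.0708% ± 0.0138 in WT. In prf1Δ, 302 of 495 were called higher, against 16.3% of all entries tested, with a median log2 fold change of 2.80 (1.94 in the other class entries, of which 40.9% were called higher). In hrp1Δhrp3Δ 340 of 495 were called, against 12.7%, with a median of 3.20 (1.79), and in hrp1Δhrp3Δprf1Δ 250 of 495, against 13.0%, with a median of 2.67 (1.90). Of the other class entries tested, 29.4% and 31.3% were called higher in these 2 mutants. Without overlap with WT were 479 of 507 in prf1Δ, against 78.4% of the class, and 374 in hrp1Δhrp3Δ, against 45.2%. Entries called in hrp1Δhrp3Δ numbered 237 that were also called in prf1Δ and 103 that were not. Both comparisons share the WT libraries.

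The counts of experiment D changed with few libraries. Without the 3 that stood apart, 443 of 501 entries were called higher in prf1Δ, 429 in hrp1Δhrp3Δ and 418 in hrp1Δhrp3Δprf1Δ, against 32.5%, 20.05% and 27.6% of all entries tested. In fits of 2 groups alone, 0 were called for hrp1Δhrp3Δ by edgeR, where 431 of 495 passed an unadjusted p of 0.05 in the fit of all 4 groups and DESeq2's Wald test called 364, and 3 for hrp1Δhrp3Δprf1Δ. Without WT replicate 1 the counts were 197 for prf1Δ, 158 for hrp1Δhrp3Δ and 156 for the triple mutant, without WT replicate 2 they were 164 for hrp1Δhrp3Δ and 142 for the triple mutant, and without triple mutant replicates 1 and 3 the last was 147 and 117.

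Set directly against hrp1Δhrp3Δ, prf1Δ was higher for 8 of 495 entries, against 1.27% of all entries tested, and lower for 19, against 0.882%, with a median log2 difference of -0.50 (0.13 in the other class entries). Without the 3 libraries, of 501 tested, 67 were higher, against 12.6% of all entries tested, and 101 lower, against 14.1%. The count of 8 was 21, 19 and 1 without hrp1Δhrp3Δ replicates 1, 2 and 3, was 0 without any 1 prf1Δ replicate, and was 1 in a fit of the 2 groups alone. Antisense taf5 had 12.6, 9.48 and 13.7 CPM in prf1Δ, against 54.5, 32.9 and 36.7 CPM in hrp1Δhrp3Δ (-2.77 ± 0.68, adjusted p = 0.041), and no library of WT exceeded 0.942 CPM. Antisense mug30, over a ubiquitin ligase gene, had 1.65, 2.29 and 2.94 CPM in prf1Δ, against 15.7, 20.4 and 25.7 CPM in hrp1Δhrp3Δ (-3.91 ± 0.66, adjusted p = 0.0085). Antisense amt2, over an ammonium transporter gene, lay on the other side, with 25.2, 27.8 and 18.9 CPM in prf1Δ, against 0, 0 and 2.16 CPM in hrp1Δhrp3Δ (4.40 ± 1.01, adjusted p = 0.032). Antisense utp4, over a U3 snoRNP gene of ribosome biogenesis, had 74.1, 37.7 and 78.5 CPM in prf1Δ, against 0, 5.58 and 3.50 CPM in hrp1Δhrp3Δ (3.84 ± 0.88, adjusted p = 0.036); the part of reads shared between entries in these values was not tested. Antisense set2 had 16.9, 17.1 and 13.8 CPM in prf1Δ and 114, 22.5 and 44.5 CPM in hrp1Δhrp3Δ, the highest in the library that stood apart; the difference missed the threshold (-3.09 ± 0.90, adjusted p = 0.077). In that library, hrp1Δhrp3Δ replicate 1 and the first listed, antisense taf5 was also the highest of its group. Antisense mug30 and utp4 were the lowest there, and amt2 was at 0 there and in replicate 2.

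The other remodeler deletions left the median of the entries near WT, except fft3Δ, whose median of 0.51 was close to the 0.50 of hrp1Δ. In experiment A, the entries called in either direction were 26 of 380 in fft2Δ (25.7% of all entries tested), 41 in fft3Δ (18.7%), 3 in mit1Δ (8.13%), 1 in rrp1Δ (0.766%), 1 in rrp2Δ (5.19%), 8 in irc20Δ (16.5%) and 6 in swr1Δ (3.77%). The median log2 fold change was 0.51 in fft3Δ, beside 0.29 in the other class entries, and lay between -0.24 in irc20Δ and 0.17 in fft2Δ for the other 6 deletions, beside -0.09 in rrp2Δ and 0.18 in fft2Δ as the lowest and highest in the other class entries. In the second set 169 entries passed the filter, of which fft1Δ had 0 called by edgeR and 0 by DESeq2 (0.0119% of all entries; 6 at an unadjusted p under 0.05) and snf22Δ had 18 (32.0%), with medians of 0.06 and 0.02. Fft3, a remodeler of the FUN30 family, gave the highest of these medians. Antisense vps16, over a vacuolar HOPS subunit gene, averaged 5.94 ± 0.432 CPM in fft3Δ, against 0.844 ± 0.182 CPM in WT (SD, n = 3 each; log2 fold change 2.74 ± 0.52, adjusted p = 6.0e-04). In swr1Δ, which lacks the enzyme that deposits H2A.Z, antisense SPCC569.03 averaged 21.3 ± 3.54 CPM, against 9.23 ± 0.255 CPM in WT (1.29 ± 0.22, adjusted p = 0.0014).

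**Figure D5:**
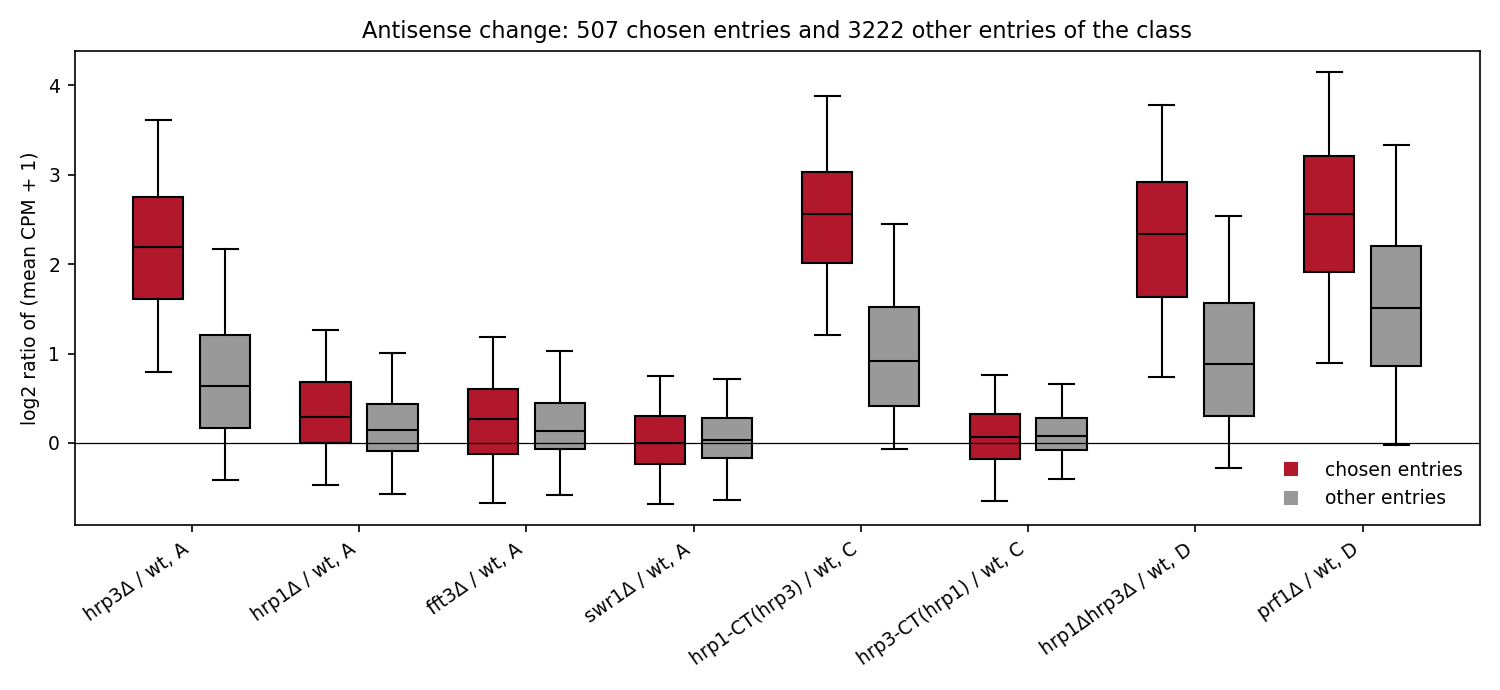
Boxes show the log2 ratio of (mean CPM + 1) for the 507 raised antisense entries (red, left of each pair) and the 3222 other antisense entries of the class (grey), with medians, quartiles and whiskers at the 5th and 95th percentiles, for 8 comparisons outside the choice. Red medians are 2.19 in libraries labelled hrp3Δ, 2.56 in libraries labelled hrp1-CT(hrp3), 2.34 in hrp1Δhrp3Δ and 2.56 in prf1Δ, and 0.29 or lower in hrp1Δ, fft3Δ, swr1Δ and hrp3-CT(hrp1).

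On the annotated strand the balance of calls differed between comparisons and with the scaling. In libraries labelled hrp3Δ of experiment A, 100 of 501 sense entries tested were called higher, against 14.1% of all annotated entries tested, and 76 lower, against 19.9%, with a median log2 fold change of 0.10 (all annotated entries -0.07). In libraries labelled hrp1-CT(hrp3), 32 of 502 were higher, against 12.9%, and 277 lower, against 41.0%, with a median of -0.29 (all annotated entries -0.20). Scaling on the annotated strand alone put the median of all annotated entries at 0.04, and then 94 were called higher and 139 lower with a median of -0.05, so the balance in libraries labelled hrp1-CT(hrp3) rests on the scaling. In hrp1Δhrp3Δ over hrp1Δ of experiment B, 46 of 503 were higher, against 11.5%, and 177 lower, against 30.5%, with a median of -0.17 (all annotated entries -0.14), and scaling on the annotated strand gave 86 higher and 71 lower. In experiment D the sense medians were -0.69 in hrp1Δhrp3Δ and -0.58 in prf1Δ, beside -0.56 and -0.46 over all annotated entries, and -0.26 and -0.13 with that scaling. Across the entries tested on both strands, r between sense and antisense log2 fold change was -0.05 over 374 in libraries labelled hrp3Δ and -0.21 over 495 in libraries labelled hrp1-CT(hrp3), as a description. Of the 344 genes with raised antisense in libraries labelled hrp3Δ that were tested on both strands, 68 rose and 54 fell in sense. Sense orc4 averaged 52.6 ± 5.04 CPM in libraries labelled hrp3Δ, against 30.0 ± 6.77 CPM in WT (0.74 ± 0.17, adjusted p = 0.0013), and sense mcm2 115 ± 14.1 CPM, against 53.8 ± 12.5 CPM (0.97 ± 0.17, adjusted p = 6.2e-05). Sense taf5, at 132 ± 14.4 CPM in libraries labelled hrp3Δ, against 126 ± 13.6 CPM in WT, differed by -0.13 ± 0.15 (adjusted p = 0.53). Sense atg9 in libraries labelled hrp1-CT(hrp3), at 51.2 ± 2.77 CPM, against 72.4 ± 9.35 CPM in WT, fell by 0.73 on the log2 scale (SE 0.11, adjusted p = 9.3e-05).

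Antisense RNA was a minor share of what these genes made at the median. Antisense CPM was 15.1% of sense CPM at the median of genes with sense counts in libraries labelled hrp3Δ of experiment A, against 1.42% in WT. It was 18.0% in libraries labelled hrp1-CT(hrp3) and 1.45% in libraries labelled hrp3-CT(hrp1), against 1.26% in WT of experiment C. In experiment D it was 17.95% in hrp1Δhrp3Δprf1Δ, 21.4% in hrp1Δhrp3Δ and 17.8% in prf1Δ, against 1.29% in WT. Antisense exceeded sense for 35 of 507 genes in libraries labelled hrp3Δ of experiment A, against 10 of 507 in WT.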

How the data were processed

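Stranded mRNA-seq was quantified by the authors with kallisto (version not given in the sources used here) against ASM294v2 transcripts and their reverse complements; the deposited files give estimated counts, which need not be whole, and TPM per entry. Counts were divided by the library total to give CPM. Counts rounded to whole numbers were tested with edgeR 4.0.16 (R 4.3.3; quasi-likelihood, TMM factors, filter minimum count 10 and total 15, 1 fit per experiment or set), with Benjamini-Hochberg adjustment over all entries tested at 0.05; SE is the absolute log2 fold change over the root of F. Tables used Python 3.11.15 and pandas 2.3.3. Sequences were read by gene name from ASM294v3. DESeq2 1.42.0, other filters and scalings, groups alone, a replicate block and leaving out libraries were alternatives. The entries and gene lists were chosen with earlier results of these data known. Named entries were those over genes the study names, the highest and most or least changed by fixed rules, those at the threshold, and up to 2 per gene list. A gene at 0 in every library of a group was given the floor of 3 counts per library, which covers counting error only. Reads shared by overlapping or repeated genes are divided by kallisto, and those values are uncertain.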

Additional observations from a re-analysis of the deposited data

How the results depend on the processing

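Thresholds of 1 and 2 in place of 1.5 gave 1008 and 222 entries, and a pseudocount of 0.5 gave 821. The hrp3Δ count of experiment A stayed within 1.5 times under each alternative, and leaving out 1 library gave 325 to 399. The same ranges were 16 to 44 for hrp1Δ (A), 283 to 366 for hrp3Δ over hrp1Δ (A), 480 to 484 for hrp1Δhrp3Δ over hrp1Δ (B), 481 to 489 for hrp1-CT(hrp3), 11 to 33 for hrp3-CT(hrp1), 480 to 486 for the direct chimera comparison, 158 to 405 for hrp1Δhrp3Δ (D), 197 to 370 for prf1Δ, 117 to 329 for hrp1Δhrp3Δprf1Δ and 0 to 21 for prf1Δ over hrp1Δhrp3Δ. Sense calls ranged from 53 to 118 higher and 61 to 77 lower in hrp3Δ (A), and from 21 to 27 higher and 241 to 283 lower in hrp1-CT(hrp3). Medians ranged from 0.08 to 0.39 (fft2Δ), 0.46 to 0.90 (fft3Δ), -0.32 to 0.0042 (mit1Δ), -0.0746 to 0.24 (rrp1Δ), -0.33 to 0.03 (rrp2Δ), -0.26 to 0.0667 (irc20Δ), -0.15 to 0.36 (swr1Δ), 0.0067 to 0.0788 (fft1Δ) and -0.10 to 0.04 (snf22Δ).

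In fits of the compared groups alone the counts were 12 for hrp1Δ (A), 6 for hrp3-CT(hrp1), 0 for hrp1Δhrp3Δ (D), 3 for hrp1Δhrp3Δprf1Δ, 1 for prf1Δ over hrp1Δhrp3Δ and 66 for sense higher in hrp3Δ (A), and the fft3Δ median was 0.66. Sense higher in hrp3Δ (A) was 61 without a filter and 39 with at least 1 CPM in 3 libraries, where sense lower was 121 and the fft1Δ median 0.0033. DESeq2 size factors gave 5 for prf1Δ over hrp1Δhrp3Δ. The DESeq2 Wald test gave 26 for hrp1Δ (A) and a median of -0.31 for rrp1Δ, and tested no entry in rrp2Δ, so that no value was had. Scaling on annotated entries gave 94 higher and 139 lower in sense for hrp1-CT(hrp3). Without the 3 libraries that stand apart the counts were 418 for hrp1Δhrp3Δprf1Δ and 67 for prf1Δ over hrp1Δhrp3Δ. The cause was not tested for any of these.

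Replicate numbers did not pair the libraries: in hrp3Δ and WT of experiment A same-numbered libraries correlated at 0.08, 0.0073 and 0.03 in their deviations, and in no comparison did all 3 pairs exceed 0.1. With the replicate number as a block the counts were 349 for hrp3Δ (A), 37 for hrp1Δ (A), 319 for hrp3Δ over hrp1Δ, 489 for hrp1Δhrp3Δ over hrp1Δ (B), 490 for hrp1-CT(hrp3), 25 for hrp3-CT(hrp1), 484 between the chimeras, 298 for hrp1Δhrp3Δ (D), 282 for prf1Δ, 188 for hrp1Δhrp3Δprf1Δ and 6 for prf1Δ over hrp1Δhrp3Δ. Depth limits experiment A, whose WT has libraries of 1127427 and 1550782 counts and where 127 entries did not pass the filter. Its library labelled hrp3Δ replicate 3 is shallower still, at 470206 counts, where 3 counts make 6.38 CPM. Depth also limits experiment D, where the library of 3657 counts cannot show an entry of a few CPM.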
